A study of Mus musculus with 8 samples.

Results

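The sites described here are the Foxa2 and Hdac3 binding sites listed around 7 genes of hepatic lipid synthesis, namely Srebf1, Mlxipl, Acly, Acaca, Fasn, Elovl6 and Scd1. A site belonged to a locus when it overlapped a fixed window around the gene by at least 1 bp in the mm9 build of the mouse genome. The windows took in 42 of the 28196 sites of the 4 lists. They held 7 of 6604 Foxa2 sites at 3 months, 23 of 12834 at 21 months, 6 of 5828 Hdac3 sites at 3 months and 6 of 2930 at 21 months. The lists came from chromatin immunoprecipitation with sequencing (ChIP-seq), which locates a protein on DNA, in snap-frozen liver of wild type C57BL/6 mice, an inbred strain. The groups were young mice at 3 months and old mice at 21 months, with no other treatment named, and each protein had its own rabbit antibody. Both libraries of a group, 8 in all over the 4 groups, are represented by 1 list, so no value below has a replicate error and no difference between ages was tested. Read depth was unknown, and the lists carry no expression values against which the tissue label could be checked.

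The liver turns surplus carbohydrate into fatty acids by a short chain of enzymes. Acly splits citrate to give acetyl-CoA, Acaca carboxylates it to malonyl-CoA, Fasn assembles palmitate from these units, Elovl6 lengthens palmitate and Scd1 introduces the double bond of monounsaturated fatty acids. Srebf1 encodes the SREBP1 factors, which activate these genes after feeding and under insulin, and Mlxipl encodes ChREBP, which activates them in response to glucose. Foxa2 is a forkhead transcription factor of hepatocytes that can open closed chromatin and has roles in hepatic lipid metabolism. Hdac3 is a histone deacetylase of the nuclear receptor corepressor complexes, and mice that lack it in liver accumulate fat.

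Foxa proteins recognise a short forkhead motif, for which TGTTTAC was searched here on both strands of the promoters that RefSeq gives for GRCm38.p6 (250 bases before to 50 bases after the gene start). The table held 9 promoters of 6 of the 7 genes. Scd1 was not among them. Elovl6 was the gene of these 6 with a match, and 4.05% of all 27025 genes of the table had one. Its promoter is shown because the same locus held the old Foxa2 site of best rank in the 7 windows. The stretch is chr3:129532136-129532435 on the plus strand of GRCm38.p6, the capitals mark the match, which reads on the opposite strand, and the match starts 123 bases before the gene start.
Elovl6 promoter: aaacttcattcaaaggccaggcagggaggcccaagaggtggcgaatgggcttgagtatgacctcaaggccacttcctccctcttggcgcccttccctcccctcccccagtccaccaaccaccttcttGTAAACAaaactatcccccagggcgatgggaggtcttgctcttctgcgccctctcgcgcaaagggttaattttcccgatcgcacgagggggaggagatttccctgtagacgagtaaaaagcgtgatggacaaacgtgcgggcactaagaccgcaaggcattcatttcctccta
The positions of this stretch and of the listed sites belong to different builds and cannot be set against each other here, so the match says nothing of where Foxa2 lay.

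Old liver had more listed Foxa2 sites than young liver at 6 of the 7 loci and the same number at Acly. All 7 windows held an old Foxa2 site, whereas 4 of 7 held a young one. For comparison, the genome was laid out in 12857 tiles of 200 kb, close to the mean window length of 196 kb. Of these tiles 41.6% held an old Foxa2 site and 30.7% a young one. Old sites made up 23 of the 30 Foxa2 sites in the windows, 76.7% (exact 95% binomial interval 57.7 to 90.1, which like all intervals here covers counting error only). Over the full lists they made up 66.0%, which lies inside that interval. With both Foxa2 lists shortened to the 6604 sites with the lowest q, the windows held 17 old and 7 young sites. The old share was then 70.8% (48.9 to 87.4), against 50% for the shortened lists by construction. With q of at most 0.05 the windows held 17 old and 5 young sites, 77.3% old (54.6 to 92.2), against 55.4% in all. The direction was thus the same under every limit tried, while the intervals included the share of all sites in each of these settings.

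**Figure D1:**
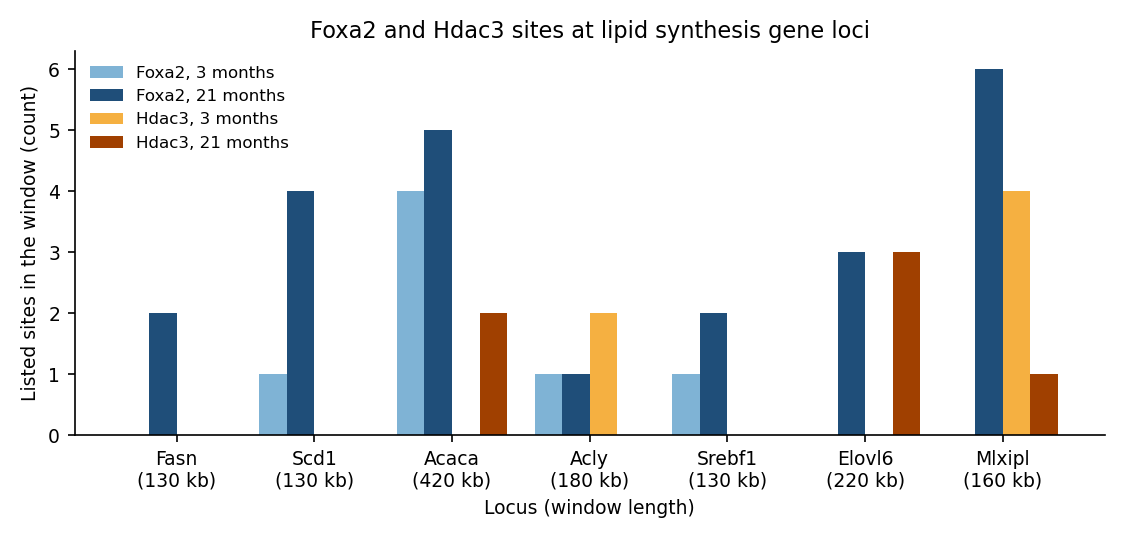
Number of listed sites in each window (y axis) at the 7 loci (x axis, with window length) for Foxa2 and Hdac3 at 3 and 21 months. The bars for Foxa2 at 21 months are the tallest of their locus or tied with another list at every locus except Acly, where Hdac3 at 3 months has 2 sites.

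Foxa2 sites were denser in the windows than over whole chromosomes at both ages, and about as dense in the flanks. Old Foxa2 sites occurred at 16.8 per Mb of window and young ones at 5.11 per Mb. Over the chromosome stretches that hold any site, Y left out, the densities were 4.99 and 2.56 per Mb, a stretch that includes gene-poor regions. In the 50 kb on either side of the windows there were 10 old and 4 young Foxa2 sites, or 14.3 and 5.71 per Mb. A higher density in the windows was not particular to Foxa2. Hdac3 sites occurred there at 4.38 per Mb at each age, against 2.26 (young) and 1.14 (old) over the chromosomes. In the flanks Hdac3 had 5.71 young and 1.43 old sites per Mb, the latter from 1 site. Of the old window sites, 10 of 23 had another old Foxa2 site within 10 kb, near the 39.1% of the full old list. This distance was chosen with the values in view.

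Among the 2 regulators, Srebf1 held a Foxa2 site at both ages. The window ran from 59.96 to 60.09 Mb on chromosome 11. The shared site lay from 60054120 to 60054258 in the young list, with a deposited q of 0.00231 and rank 749, and from 60054089 to 60054262 in the old list, with a q of 7e-07 and rank 586. It was the highest-ranked young Foxa2 site of all 7 windows, although its enrichment, a fold value made by the authors with no stated reference, was below the median of both lists (4.42 young and 9.82 old, with medians of 11.9 and 22.3). A further old site from 60033279 to 60033378 had a q of 0.0659 and no young site nearer than 20.7 kb. No Hdac3 site of either age lay in the Srebf1 window.

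Mlxipl had the most old Foxa2 sites and no young one. Its window, chromosome 5 from 135.51 to 135.67 Mb, held 6 old Foxa2 sites, and 1.95% of tiles of the same 160 kb length held as many or more. For old Foxa2 this was the lowest such share of the 7 loci, and Scd1 had the next lowest, 4.24%. The other loci, each with tiles of its own window length, ranged from 15.2% at Fasn and Srebf1 to 39.1% at Acly. The sites at 135576832, 135580249 and 135584028 followed each other at gaps of 3.30 and 3.68 kb. The first of these had the lowest q of the locus, 0.00392, with an enrichment of 62.7 and a width of 119 bp. The others of the locus had q values from 0.0185 to 0.0957, and the old sites at 135594724 and 135659612 were narrow, at 45 and 41 bp. No young Foxa2 site lay nearer than 84.6 kb to any of the 6, and the nearest was in the 50 kb beyond the window. Of tiles of 160 kb 26.1% held a young Foxa2 site, so most tiles of this length had none. A site that misses the limit of the young list is not shown by that list, so its level at 3 months is not known here.

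Acly, the first enzyme of the chain, had 1 Foxa2 site at each age, at different places. The window was chromosome 11 from 100.27 to 100.45 Mb. The young site, from 100379531 to 100379537, was 7 bp wide and carried an enrichment of 195 with a q of 0.0346. The old site, from 100392464 to 100392563, was 100 bp wide and had a q of 0.0191. They lay 12.9 kb apart. Neither place was listed at the other age.

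Acaca, which makes the committed substrate of fatty acid synthesis, held the largest number of Foxa2 sites found at both ages. In its window, chromosome 11 from 83.85 to 84.27 Mb, 3 of the 4 young sites had an old partner and 3 of the 5 old sites a young one. The shared sites began at 83977742, 83982434 and 84032585 in the old list, with q values of 0.000286, 0.00326 and 0.00153, all in the best 25% of that list. In the young list the first 2 of them were among the weakest, with q values of 0.0914 and 0.0568, enrichments of 2.21 and 3.40, and ranks 6452 and 5707 of 6604. The third had a young q of 0.0133 and rank 1484. The young site without an old partner, from 83993301 to 83993323, was 23 bp wide and lay 10.7 kb from the nearest old site. The old sites without a young partner, at 83959685 and 84024576, had q values of 0.0195 and 0.0706.

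Fasn, the synthase itself, had 2 old Foxa2 sites, no young one and no Hdac3 site. Both lay in the window on chromosome 11 from 120.61 to 120.74 Mb, from 120661432 to 120661528 with a q of 0.0301 and from 120678791 to 120678941 with a q of 0.000183. The second had rank 1657 and an enrichment of 24.9. The nearest young Foxa2 site was 113 kb from the first and 131 kb from the second.

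Elovl6 held the old Foxa2 site of best rank in all the windows, and the young list had none in this window. The window was chromosome 3 from 129.18 to 129.40 Mb. The old site from 129234906 to 129235292 had a q of 4.01e-07, rank 533, an enrichment of 53.9 and a width of 387 bp, a width reached by 1.39% of the old list. Among the 533 old sites down to that rank, 35 had no young Foxa2 site, 6.57%. These shares belong to a site picked as the best-ranked of 23, so they do not show the windows to be unusual. The nearest young site was 102 kb away, in the 50 kb beyond the window. The other old sites of the locus, at 129196551 and 129276891, had q values of 0.0187 and 0.0701 and were 100 and 81 bp wide.

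Scd1, the desaturase, had 4 old Foxa2 sites and 1 young site in its window on chromosome 19 from 44.41 to 44.54 Mb. Of 130 kb tiles 4.24% held 4 or more old sites. The site found at both ages lay from 44454709 to 44454773 in the young list (q of 0.00562, rank 1046) and from 44454667 to 44454822 in the old list (q of 3.63e-05, rank 1142). Its enrichment, 40.1 at 3 months and 70.3 at 21 months, was above the median of either list. Old sites without a young partner lay 6.11 kb beyond it at 44460928 (q of 0.105), then at 44462951 (q of 0.00662), and at 44490770, where the site was 291 bp wide with a q of 0.000839 and rank 2165. In RefSeq the genes next to Scd1 include its relatives Scd2 and Scd4, so a site in this window is not tied to Scd1 itself. The same holds at the other loci, where Fasn neighbours Ccdc57 and Srebf1 neighbours Rai1 and Tom1l2.

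**Figure D2:**
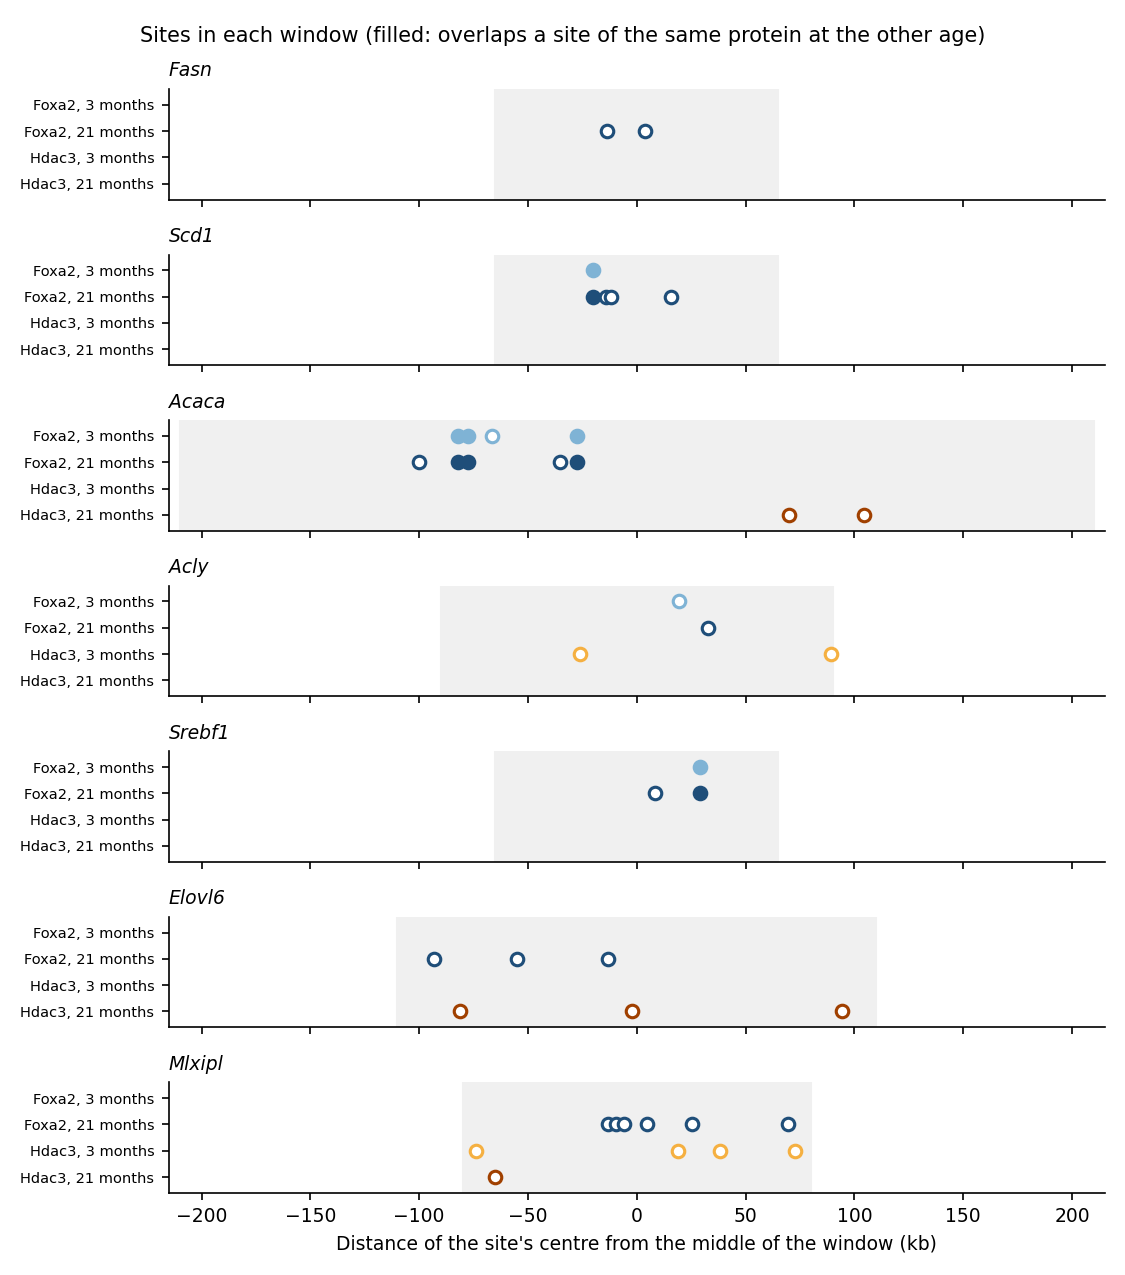
Position of each site as the distance of its centre from the middle of its window (x axis, kb) in 7 panels, with 1 row per list and the window shaded. Filled points overlap a site of the same protein at the other age. The filled points are 1 pair at Scd1, 3 pairs at Acaca and 1 pair at Srebf1, and no Hdac3 point is filled.

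Sharing between the ages in the windows was near that of the whole old list and was set by few sites. Of the 23 old Foxa2 sites, 5 overlapped a young site, 21.7% (7.46 to 43.7), against 21.0% of all old sites. An old site was found at 5 of the 7 young sites, 71.4% (29.0 to 96.3), against 40.7% of all young sites, a share inside the interval. Width separated the young sites: all 5 of at least 30 bp were shared and the 2 narrower ones were not. In the full young list 59.5% of sites of at least 30 bp and 14.8% of narrower ones were shared. All 5 shared old sites were among the 9 in the best 25% of the old list. Within that part of the list shared and unshared sites were mixed in rank, and the 5 of 9 (55.6%) were near the 57.0% of all old sites there. The 4 unshared sites of that part of the list were those at Elovl6, Fasn, Scd1 (at 44490770) and Mlxipl (at 135576832). The 18 old sites without a young partner lay from 6.16 to 167 kb from the nearest young Foxa2 site, with a median of 86.3 kb.

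**Figure D3:**
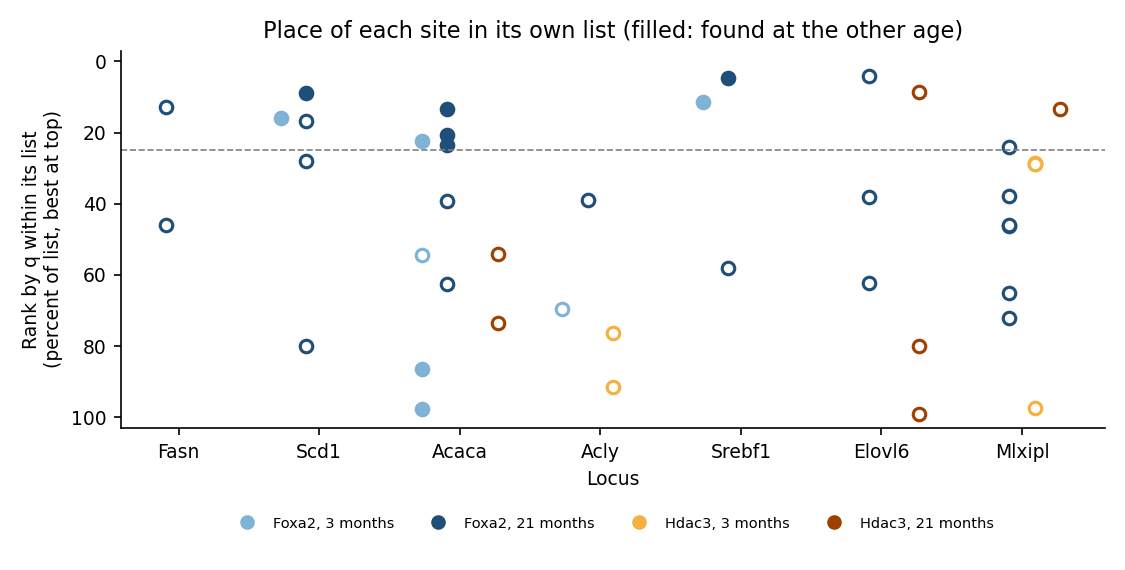
Place of each site in its own list by q, as a percent of the list with the best at the top (y axis), by locus (x axis) and list. The dashed line marks the best 25%, filled points are sites found at the other age, and sites of nearly equal rank at Mlxipl coincide. The filled points of the old Foxa2 list all lie above the line, while 2 of the filled young points at Acaca lie near the bottom.

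At each of the 5 places found at both ages, the young site lay inside the old one. The old sites were 156 bp against 65 bp at Scd1, 154 against 90, 127 against 57 and 119 against 75 bp at Acaca, and 174 against 139 bp at Srebf1. The ratio of widths ran from 1.25 to 2.40, with a median of 1.71. Over the 2700 overlapping pairs of the full lists the young site lay inside the old one in 75.5% and the median ratio was 1.98, so the nesting was common to most shared sites. The centres of the 5 pairs differed by at most 29 bp, with a median of 13.5 bp, against a median of 18 bp over all pairs. The part of read depth, which is unknown, in these widths was not tested.

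**Figure D4:**
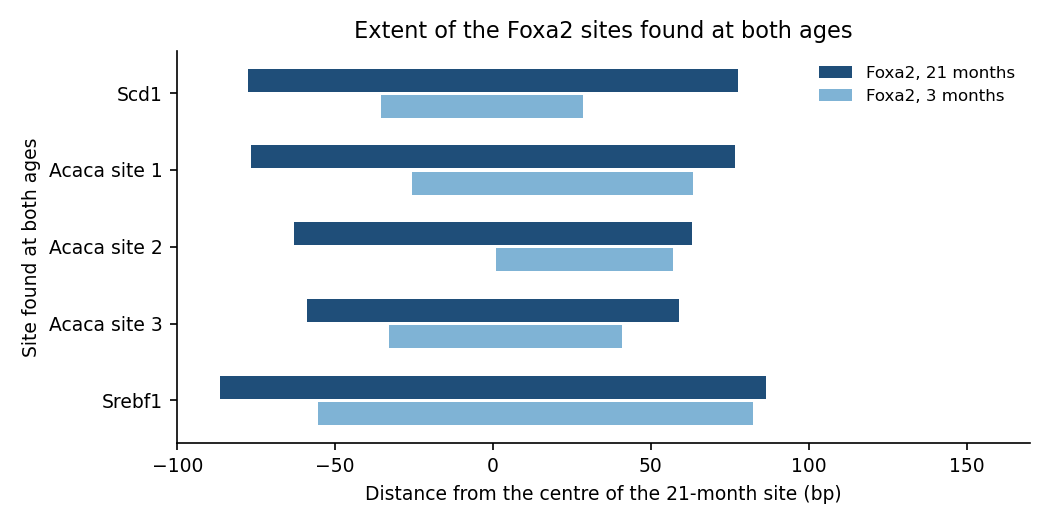
Extent of the 5 Foxa2 sites found at both ages (y axis), as distance from the centre of the 21-month site (x axis, bp), with dark bars for 21 months and light bars for 3 months. Each light bar, from 57 to 139 bp wide, lies within its dark bar, from 119 to 174 bp wide.

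Hdac3 was listed 6 times in the windows at each age, with Mlxipl as the locus that had sites at both ages, and no place was listed at both ages. Old sites were thus 6 of 12, 50% (21.1 to 78.9), against 33.5% over the full lists, a share inside the interval. Young Hdac3 sites lay at Mlxipl (4 sites) and Acly (2), and old ones at Elovl6 (3), Acaca (2) and Mlxipl (1). Loci with a site thus numbered 2 of 7 for young Hdac3, where 29.0% of 200 kb tiles held such a site, and 3 of 7 for old Hdac3, where 16.7% did. Fasn, Scd1 and Srebf1 had no Hdac3 site in their windows. None of the 6 young sites overlapped an old one and none of the 6 old sites a young one, counts that each allow a share of up to 50%. In the full lists 2.71% of young and 5.56% of old Hdac3 sites did.

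The Hdac3 sites of the windows were narrow and had high q values, like those of the lists they came from. Widths ran from 7 to 54 bp in the young list and from 2 to 67 bp in the old list, with medians of 25.5 and 21 bp close to those of the full lists (26 and 23 bp). Young q values ran from 0.11 to 0.195 and old ones from 0.0505 to 0.179, so that no Hdac3 site of the windows had a q of 0.05 or less. Their median q was 0.133 at 3 months and 0.0895 at 21 months, near the 0.129 and 0.0775 of the full lists. A q of 0.05 or less was rare in those lists too, at 105 of 5828 young and 233 of 2930 old Hdac3 sites. The lowest q belonged to an old site at Elovl6 that began at 129384104, measured 2 bp and carried an enrichment of 877. The other old sites there, at 129208847 and 129287768, were 49 and 67 bp wide with enrichments of 3.07 and 19.7. At Acaca the old sites at 84129726 and 84164412 were 29 and 3 bp wide, with q values of 0.0797 and 0.0992. At Mlxipl the old site at 135524671 was 13 bp wide with a q of 0.0539. The 4 young sites at Mlxipl began at 135516173, 135608696, 135628263 and 135662875, with widths of 25, 54, 7 and 11 bp, and 3 of them shared a q of 0.11. Young sites at Acly, at 100333995 and 100449141, had q values of 0.186 and 0.156. As many Hdac3 sites as the 4 young ones at Mlxipl were found in 0.803% of 160 kb tiles, and as many as the 3 old ones at Elovl6 in 0.907% of 220 kb tiles. These are the smallest such shares among 16 pairs of locus and list with a site, and they were picked for that with the values in view.

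Foxa2 and Hdac3 sites did not overlap in any window. Of the 30 Foxa2 sites of both ages none overlapped an Hdac3 site of either age, which allows a share of up to 10%, and 3.23% of all Foxa2 sites did, so 30 sites are too few to tell the windows from the rest. The closest pair was at Mlxipl, where the young Hdac3 site at 135662875 lay 3.22 kb from the old Foxa2 site at 135659612. The next closest lay there too, with 6.61 kb between the young Hdac3 site at 135608696 and the old Foxa2 site at 135615356. At Elovl6, where both proteins were listed in old liver, the nearest pairs of that age were 10.8 and 12.2 kb apart. At Acaca the old Hdac3 sites lay 97.0 and 132 kb from the nearest old Foxa2 site, on the far side of the window from the Foxa2 sites.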

How the data were processed

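Foxa2 and Hdac3 were located by ChIP-seq in 8 mouse liver libraries, grouped by protein and age from their titles. The tools included BWA, and the build was mm9, per the submitters' processing notes. Not given in the sources used here are the peak caller, control library, list limits, read depths, the first position of a chromosome (0 or 1) and whether libraries of a group came from separate animals. A position, a fold enrichment (a ratio made by the authors) and a q-value are listed for every site, per the file headers. The deposited q-values reach 0.12 for Foxa2 and 0.2 for Hdac3. Positions are printed as deposited, with the end counted as part of a site.

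Sites were matched to the windows and to each other at 1 bp of overlap and ranked by q, then by enrichment. Shares have exact (Clopper-Pearson) 95% intervals, and a count of 0 is limited by 3 counts of the total. Tiles ran from the first to the last site on each chromosome except Y. Named were all loci, all sites where a locus had at most 6, and otherwise the site of lowest q per list, shared Foxa2 sites and Hdac3 sites. Other sites named were chosen after their values were seen. The windows and results were chosen with earlier results of these data known. Other lipogenic genes were not analysed here, since no mm9 annotation was used, and that each window holds its gene was not checked. Overlap counts equalled those of bedtools 2.31.1, and the code was tested on simulated data. Python 3.11.15, pandas 2.3.3 and scipy 1.17.1 were used. Alternatives were q limits of 0.1, 0.05 and 0.01, lists of equal length, windows widened by 50 kb, sites of at least 30 bp, 3 other overlap rules and the motif TGTTTGC.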

Additional observations from a re-analysis of the deposited data

How the results depend on the processing

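No paired analysis was possible because the libraries of a group share 1 list, and for the same reason no library could be left out. With q of at most 0.01 the windows held 2 young and 10 old Foxa2 sites, and 100% of those 2 young sites were found in the old list. The old share was then 83.3% (51.6 to 97.9), against 73.9% of the full lists, a share inside the interval. Widening the windows gave 11 young Foxa2 and 10 young Hdac3 sites. Young Hdac3 sites numbered 0 at each q limit (0.1, 0.05 and 0.01), where the full young list fell from 5828 to 1288, 105 and 76 sites. They numbered 3 in lists of equal length and 2 at 30 bp or more. Old Hdac3 sites numbered 0 at q of at most 0.05 and 0 at 0.01, and 2 at 30 bp or more. With q of at most 0.1 the old share of Hdac3 sites was 100% (4 of 4, interval 39.8 to 100). The 63.4% of the full lists lies inside that interval. In lists of equal length the share was 66.7% (6 of 9, 29.9 to 92.5), and the 50% of those lists lies inside that interval too. At q limits of 0.05 and 0.01 no Hdac3 site was left to give a share. Among sites of at least 30 bp, 100% of young Foxa2 sites (5 of 5) were found in the old list. Other settings lowered this share from the main 71.4% (5 of 7). It was 60% (3 of 5) with q of at most 0.05. Where the overlap had to cover 50% of both sites it was 42.9% (3 of 7). The main share of all young sites was 40.7%. The motif TGTTTGC was found in 0 of the 6 genes' promoters, against 1 for TGTTTAC, and in 5.76% of all genes. The old share of Foxa2 sites ranged from 70.8% to 83.3% over the alternatives, and that of the full lists from 50% to 75.5%. No Foxa2 site had an Hdac3 site with centres within 200 bp, edges within 500 bp or windows widened by 50 kb. The q limits, the width limit and the rule of 50% overlap of both sites can only remove sites or overlaps. Their counts of 0 therefore followed from the main count of 0 and add nothing to it. The rules of 200 bp and 500 bp add nothing in the windows beyond the distances above, since the closest pair lay 3.22 kb apart. At the q limits of 0.05 and 0.01 no Hdac3 site was even left in the windows. With 5 shared pairs and 12 Hdac3 sites, single sites set these values.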

Other observations

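In the 50 kb beside 2 of the windows without a young Foxa2 site, Foxa2 was listed at both ages. Beside Elovl6, a site on chromosome 3 from 129132340 to 129132420 in the young list (q of 0.00239, rank 786) overlapped an old site from 129132232 to 129132448 (q of 1.25e-08, rank 312, enrichment 65.3), which ranked above every Foxa2 site inside the window. Beside Mlxipl, old sites on chromosome 5 at 135478238 (q of 0.0185) and 135695995 (q of 0.0957) had no young partner. Young sites there, at 135468618 (q of 0.00513) and 135492268 (q of 0.0239, 4 bp wide), overlapped old sites with q values of 0.00154 and 0.0111. The absence of young Foxa2 sites at these 2 loci therefore depends on where the windows end. Of the 10 old Foxa2 sites in the 50 kb flanks, 3 overlapped a young site, against 21.0% of all old Foxa2 sites. Beside Fasn, the flanks held 1 old Foxa2 site at 120588518 with a q of 0.0931 and no young one. A young Hdac3 site at 59933112 (39 bp, q of 0.185) lay beside the Srebf1 window, which itself held none. None of the 10 old and 4 young flanking Foxa2 sites overlapped an Hdac3 site. Of all Foxa2 sites 3.23% did, so these are too few to tell the flanks from the rest.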
